A study of Mus musculus with 12 samples.

Results

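Contractile genes form the group of transcripts by which a myofibroblast is told from a resting fibroblast. They encode smooth muscle actin isoforms and the proteins that bind, regulate and anchor actin filaments. Many are transcribed by serum response factor (SRF), which binds the CArG box, a short DNA motif with an A/T core. SRF has cofactors of 2 kinds. The myocardin-related factors, encoded by Mkl1 and Mkl2, stay in the cytoplasm bound to free actin monomers and enter the nucleus when actin polymerises, and they serve the contractile genes. The ternary complex factors, encoded by Elk1, Elk3 and Elk4, serve immediate-early genes such as Fos and Egr1. In atherosclerotic plaques, smooth muscle α-actin, encoded by Acta2, is the usual marker of the cells that build the fibrous cap.

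The genes described are Acta2, Actg2, Tagln, Cnn1, Cnn2, Myl9, Tpm1, Tpm2, Lmod1 and Vcl. These 10 of the 32544 genes in the deposited table were chosen by symbol, with earlier results of these data known. They were followed in mouse 3T3 fibroblasts (NIH/3T3, an immortalised embryonic fibroblast line) and in bone marrow-derived macrophages (BMDMs). PHD2cko BMDMs came from mice in which LysM-Cre deletes PHD2, an oxygen sensor encoded by Egln1, in myeloid cells. WT BMDMs carried LysM-Cre without that deletion, and both genotypes lacked the LDL receptor. BMDMs were differentiated for 7 days and sequenced 24 h after seeding. Media were conditioned on BMDMs for 24 h with 2% fetal calf serum and 15% L929-conditioned medium. The fibroblasts were starved in 0.1% serum, then kept for 72 h in WT or PHD2cko medium, and the oxygen condition of the sequenced cultures is not named in the sources used here. Each of the 4 groups had 3 libraries. Since nothing says that these came from separate animals or cultures, p-values measure only the spread among these libraries.

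The libraries held from 15516465 to 25199770 estimated counts. All 11 fibroblast markers had counts in every fibroblast library and in BMDM PHD2cko replicate 2, and 1 to 3 of them were at 0 in the other BMDM libraries. Their summed level per 1e6 of the total count was 28250 to 37300 in the fibroblast libraries and 2781 to 2959 in the BMDM libraries. Among the WT medium libraries replicate 1 stood apart, with a chi-square over its degrees of freedom of 24.6 to replicate 2 and 26.2 to replicate 3, where the latter pair had 2.34. In BMDMs, Egln1 was higher in the libraries labelled PHD2cko (55.4 ± 0.574 against 69.6 ± 1.77 CPM, SD, n = 3 each; log2 fold change 0.33, adjusted p = 0.00203, edgeR), so all directions below follow the labels. The table has 1 value per gene and cannot show a deleted exon. PHD2 marks hypoxia-inducible factors for breakdown. Of 9 textbook targets of these factors, chosen after the data were seen, 6 were higher and 0 lower in the PHD2cko BMDMs past the threshold given below, where 6.73% of all genes differed. Egln3 was at 4.32 and 16.8 CPM (log2 fold change 1.96, adjusted p = 1.8e-07, edgeR), and Bnip3 at 34.9 and 63.0 CPM (0.85, adjusted p = 1.52e-05, edgeR). CPM are counts per 1e6 of the normalized library size.

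The promoter letters are shown first because the CArG box is the motif that SRF is known to bind. No binding data were used. For 8 of the 10 genes and for Srf itself, RefSeq promoter windows of mouse assembly GRCm38.p6 were searched, from 250 bases before the transcription start to 50 after it. An exact CArG box opens with CC, closes with GG and has only A or T in the 6 bases between, and a near match has 1 G or C in that core. The motif class reads the same on both strands. Windows for Actg2 and Tagln were not used here. In each stretch the box is in capitals, with 10 bases on either side.

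Acta2, near match, chr19:34255438-34255467, minus strand: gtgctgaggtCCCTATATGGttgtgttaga
Acta2, near match, chr19:34255388-34255417, minus strand: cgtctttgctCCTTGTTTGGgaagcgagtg
Cnn2, exact, chr10:79988534-79988563, plus strand: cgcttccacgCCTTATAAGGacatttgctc
Myl9, exact, chr2:156775293-156775322, plus strand: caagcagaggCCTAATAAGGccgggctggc
Myl9, near match, chr2:156775355-156775384, plus strand: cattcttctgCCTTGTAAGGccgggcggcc
Vcl, exact, chr14:20929161-20929190, plus strand: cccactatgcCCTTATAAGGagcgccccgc
Srf, exact, chr17:46556225-46556254, minus strand: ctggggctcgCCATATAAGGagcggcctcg
Srf, exact, chr17:46556205-46556234, minus strand: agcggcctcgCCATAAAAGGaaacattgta

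Exact boxes were found in 3 of the 8 windows, those of Cnn2, Myl9 and Vcl, and boxes of either kind in 4. Over all 32851 windows, 1.63% held an exact box, 8.50% a near match and 9.98% either. The genes were listed as contractile and SRF-dependent, so these shares are a description and test nothing. The box of Cnn2 began 56 bases before the start, and that of Vcl, with the same 10 letters, 227 bases before it. The pair in Acta2 began 84 and 34 bases before the RefSeq start. GENCODE begins Acta2 217 bases further upstream, and both boxes lie within exon 1 of its transcript Acta2-201, 34255290 to 34255590. No box was found in the windows of Cnn1, Tpm1, Tpm2 and Lmod1, which says only that these letters are not in that window.

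**Figure D1:**
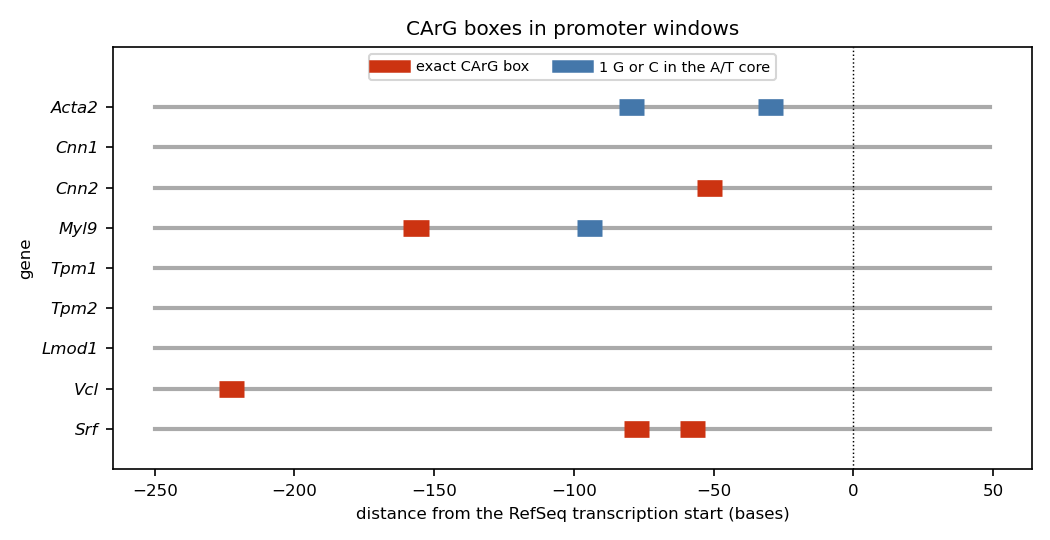
Positions of CArG boxes in the promoter windows of 8 contractile genes and Srf. The x axis is the distance from the RefSeq transcription start in bases, grey lines are the windows searched, red blocks are exact boxes and blue blocks near matches. Exact boxes lie upstream of the start in Cnn2, Myl9, Vcl and Srf, and near matches in Acta2 and Myl9.

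In 3T3 fibroblasts, 8 of the 10 contractile genes fell in PHD2cko medium and 0 rose. The smooth muscle actins Acta2 and Actg2, the actin-binding protein gene Tagln, the myosin light chain gene Myl9 and the actin nucleator gene Lmod1 were 1.94 to 2.75 times lower. The largest of these falls, 2.75 for Actg2, rests on 3 to 21 counts per library, and the next was 2.51 for Lmod1. Actg2 missed the threshold when any 1 fibroblast library was left out. Cnn2 was 1.52 times lower, and the tropomyosin genes Tpm1 and Tpm2 fell by 16.0% and 14.8%. Cnn1 and Vcl did not pass the test. Over the 10 genes the median log2 fold change was -0.79, beside -0.0046 over all 14285 genes tested. Of all genes tested, 6.75% were lower and 8.93% higher past the threshold, an adjusted p of 0.05 by the quasi-likelihood test of edgeR, adjusted after Benjamini and Hochberg. For 9 of the 10 genes the 3 libraries in PHD2cko medium all lay below the 3 in WT medium, which held for 16.5% of all genes. All 10 genes passed the filter on low counts. As they were chosen with earlier results of these data known, the shares of all genes give a scale and no test of the list.

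The actin isoforms come first. Acta2 (chromosome 19 of GRCm38, 34241090 to 34255590, minus strand) had 8664, 10798 and 7607 counts in WT medium replicates 1 to 3 and 3954, 3248 and 3916 in PHD2cko medium. Normalized, these were 441, 392 and 402 CPM against 203, 188 and 190 CPM. The lowest library in WT medium stood well above the highest in PHD2cko medium. The log2 fold change was -1.09 (standard error, SE, 0.0567, adjusted p = 6.68e-07, edgeR), the third smallest p of all genes tested. It stayed between -1.12 and -1.01 under every alternative run. Among the counts of Acta2, Actg2, Acta1, Actc1, Actb and Actg1 together, Acta2 made up 7.39% ± 0.0821 in WT medium and 4.38% ± 0.236 in PHD2cko medium (SD, n = 3 each).

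Actg2, the γ-actin of enteric smooth muscle (chromosome 6, 83512905 to 83536265, minus strand), was near the limit of detection. Its counts were 21, 17 and 16 in WT medium and 8, 6 and 3 in PHD2cko medium. The groups did not overlap, and the log2 fold change was -1.46 (SE 0.436, adjusted p = 0.0468, edgeR). Actg2 missed the threshold when any of the 6 fibroblast libraries was left out (adjusted p from 0.0531 to 0.174, edgeR).

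Of the other actins, the cytoplasmic isoform gene Actg1 fell from 2903 to 2168 CPM (log2 fold change -0.42, SE 0.0578, adjusted p = 4.51e-04, edgeR). Of the 31-base stretches in its transcripts, 47.2% also occur in other genes, so counts could be split among copies. Actb, the second cytoplasmic isoform, was at 2251 and 2058 CPM, and its log2 fold change of -0.13 did not pass the test (adjusted p = 0.155, edgeR). Acta1 and Actc1, the skeletal and cardiac isoforms, were too low to be tested, with group means of at most 0.135 and 0.0171 CPM in the fibroblasts.

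Tagln, which encodes SM22α, a calponin-family protein on actin filaments (chromosome 9, 45929619 to 45936058, minus strand), was at 49.3, 43.3 and 46.4 CPM in WT medium. In PHD2cko medium it was at 25.1, 23.3 and 23.3 CPM. All 3 values in PHD2cko medium were below every value in WT medium, and the log2 fold change was -0.95 (SE 0.0889, adjusted p = 5.95e-05, edgeR). Of its 31-base stretches, 52.9% also occur in other annotated genes, among them the overlapping Pcsk7, which was at 22.5 and 23.2 CPM (log2 fold change 0.04, adjusted p = 0.72, edgeR). The strand setting of the libraries is not given in the sources used here, so reads of the opposite strand cannot be told apart from those of Tagln.

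The calponins bind actin and tropomyosin and slow the myosin motor. Cnn1, the smooth muscle form (chromosome 9, 22099216 to 22109630, plus strand), had few counts, 46, 59 and 38 in WT medium and 36, 22 and 22 in PHD2cko medium. The groups did not overlap, but the log2 fold change of -0.63 (SE 0.268, 95% interval -1.21 to -0.05) did not pass the test, with an unadjusted p of 0.0361 and an adjusted p of 0.139 (edgeR). Cnn2, the widely expressed form (chromosome 10, 79988584 to 79996062, plus strand), was at 450, 381 and 391 CPM in WT medium and 271, 274 and 261 CPM in PHD2cko medium. These groups were well apart, with a log2 fold change of -0.60 (SE 0.0651, adjusted p = 1.2e-04, edgeR).

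Myl9 encodes the regulatory light chain of smooth muscle and non-muscle myosin II, the chain that is phosphorylated to start contraction (chromosome 2, 156775420 to 156781658, plus strand). It was at 13.8, 13.7 and 11.9 CPM in WT medium and 6.99, 6.25 and 6.78 CPM in PHD2cko medium. No library in PHD2cko medium reached the lowest in WT medium, and the log2 fold change was -0.98 (SE 0.152, adjusted p = 0.00102, edgeR).

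Lmod1, leiomodin of smooth muscle, starts new actin filaments (chromosome 1, 135324807 to 135368065, plus strand). Its counts were 165, 217 and 157 in WT medium and 65, 63 and 58 in PHD2cko medium, or 8.39, 7.87 and 8.30 against 3.34, 3.65 and 2.81 CPM. The groups were far apart, and the log2 fold change of -1.33 (SE 0.151, adjusted p = 7.13e-04, edgeR) placed Lmod1 as number 11 of the 964 genes that fell, ordered by log2 fold change. Actg2 was number 9 and Acta2 number 27 in that order.

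Tropomyosins lie along actin filaments and control which proteins reach them. Tpm1 (chromosome 9, 67022590 to 67049406, minus strand) was at 463, 440 and 437 CPM in WT medium and 378, 366 and 382 CPM in PHD2cko medium. Tpm2 (chromosome 4, 43514711 to 43523765, minus strand) was at 181, 158 and 155 CPM against 143, 139 and 139 CPM. Neither gene's groups overlapped, yet the falls were small, with log2 fold changes of -0.25 for Tpm1 (SE 0.0473, adjusted p = 0.00341, edgeR) and -0.23 for Tpm2 (SE 0.0654, adjusted p = 0.0320, edgeR). Tpm2 missed the threshold without any 1 of the libraries in PHD2cko medium, with adjusted p of 0.0773, 0.0709 and 0.107 (edgeR) without replicates 1, 2 and 3. Tpm2 fell by 0.14 on the log2 scale without WT medium replicate 1 (adjusted p = 0.0304, edgeR). The table has 1 value per gene, so the many splice forms of the tropomyosins cannot be told apart.

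Vcl encodes vinculin, which ties actin to integrins and cadherins at adhesion sites (chromosome 14, 20929398 to 21033676, plus strand). It was at 292, 338 and 356 CPM in WT medium and 291, 312 and 299 CPM in PHD2cko medium. The groups overlapped, because WT medium replicate 1 was as low as the PHD2cko medium libraries. The log2 fold change of -0.13 (95% interval -0.29 to 0.03) did not pass the test (adjusted p = 0.271, edgeR). Without WT medium replicate 1 it was -0.19 and passed (adjusted p = 0.0150, edgeR), and without WT medium replicate 3 it was -0.07 (adjusted p = 0.577, edgeR). Of its 31-base stretches, 38.4% also occur in other annotated genes, mainly Ap3m1, which overlaps it on the other strand and was at 61.5 and 62.4 CPM (log2 fold change 0.02, adjusted p = 0.84, edgeR).

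**Figure D2:**
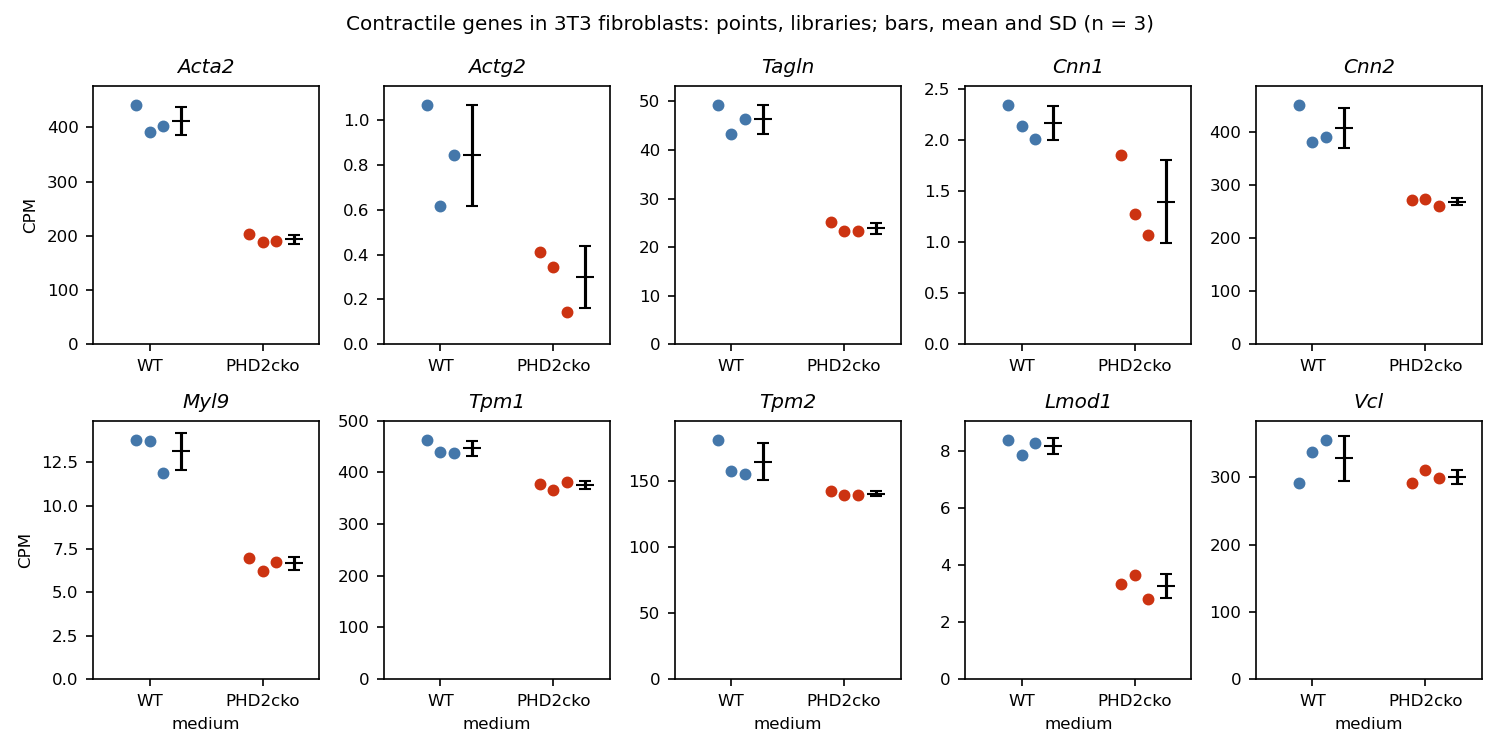
Levels of the 10 contractile genes in 3T3 fibroblasts. The y axis is CPM and starts at 0 in each panel, points are single libraries in WT (blue) and PHD2cko (red) medium, and black bars are the mean and SD of 3 libraries. The groups do not overlap in 9 panels, and in Vcl they do.

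Across the 6 fibroblast libraries, the log2 CPM of each gene was compared with the mean of the other 9 after scaling. Pearson's r ran from 0.855 for Cnn1 to 0.996 for Tagln, and was 0.378 for Vcl. These points share their libraries and the difference between media. The genes outside all lists with the most similar course were 0610009O20Rik (r = 0.999), Tspan11 (r = 0.999), Scamp3 (r = 0.997), Rpn2 (r = 0.996) and Cnksr3 (r = 0.996), of 9264 genes with at least 10 CPM. Their log2 fold changes were -0.24, -0.32, -0.17, -0.09 and -0.63, and that of Rpn2 did not pass the test (adjusted p = 0.156, edgeR).

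Transcripts of macrophage marker genes were present in the fibroblast libraries, and their level differed with the medium. The source of these transcripts was not tested. The summed level of 23 macrophage markers, here per 1e6 of the total count, was 24.6 to 27.9 CPM in WT medium and 224 to 997 CPM in PHD2cko medium, and no marker was at 0 counts in PHD2cko medium. All 23 markers lay higher in every library of PHD2cko medium, which held for 15.4% of all genes, and 22 rose past the threshold, beside 8.93%. With at least 10 counts in every library, 9 markers could be tested and 8 rose. As a share of the BMDM level this was 0.0636% ± 0.00417 in WT medium and 1.89% ± 1.13 in PHD2cko medium (SD, n = 3 each). The PHD2cko medium library with the lowest share, 0.600% in replicate 2, summed to 1314 CPM over the 10 contractile genes, between the 1323 and 1305 CPM of replicates 1 and 3, whose shares were 2.67% and 2.41%. In WT medium these sums were 1901, 1776 and 1810 CPM. With the estimated share subtracted, 14 of the 23 markers were still higher past the threshold and 1 was lower, so the subtraction did not remove their difference. In that fit 6 of the 10 contractile genes were lower past the threshold, beside 6.58% of all genes, and the median log2 fold change was -0.75. The genes that then missed it were Actg2, at -1.42 after and -1.46 before subtraction (adjusted p = 0.0565, edgeR), and Tpm2, at -0.19 after and -0.23 before (adjusted p = 0.0719, edgeR), while Acta2 had a log2 fold change of -1.05 (adjusted p = 5.07e-07, edgeR). In bulk libraries, fewer cells that express a gene and less RNA per cell cannot be told apart.

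The same genes were compared between BMDMs of both genotype labels, which are not stated to be the cultures that conditioned the media. The contractile genes were far lower in BMDMs. Each of the 10 was higher in 3T3 fibroblasts in WT medium than in WT BMDMs past the threshold, which held for 44.9% of all genes tested, and in all 3 libraries against all 3. Lmod1 had 0 counts in all 6 BMDM libraries, and Actg2 had 1 count in 1 of them. Against a floor of 3 counts in a WT BMDM library, 0.195 CPM, Lmod1 was at least 42.0-fold and Actg2 at least 4.33-fold higher in the fibroblasts in WT medium. Acta2 had 7 to 13 counts, Tagln 18 to 39, and Cnn1, Myl9 and Tpm2 at most 5.

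Only Cnn2, Tpm1 and Vcl had over 500 counts in each BMDM library. Between the genotype labels, 0 of the 10 genes passed the test in BMDMs with edgeR, DESeq2 or limma-voom. With edgeR, 6.73% of all genes passed. An unadjusted p under 0.05 was found for 1 of the 10, and for 2721 of all 14285 genes (edgeR). The 1 contractile gene was Cnn2, at 40.8, 36.9 and 40.2 CPM in WT and 42.5, 46.4 and 46.3 CPM in PHD2cko libraries. The 3 PHD2cko values lay above the 3 WT values, which held for 2331 of all 14285 genes. The log2 fold change was 0.20 (SE 0.0734, adjusted p = 0.147, edgeR). Fitted on the 6 BMDM libraries alone, Cnn2 passed (adjusted p = 0.0164, edgeR), as did 2534 of the 12282 genes tested there. In that fit 4 of the 10 contractile genes could be tested. Tpm1 was at 77.1 ± 3.54 and 78.3 ± 1.96 CPM, a log2 fold change of 0.02 (95% interval -0.09 to 0.13). Vcl was at 34.3 ± 2.10 and 35.3 ± 2.36 CPM (SD, n = 3 each), and its log2 difference was 0.04 (95% interval -0.14 to 0.22).

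The difference between the fibroblast and the BMDM effect was tested as an interaction. It passed for Cnn2 (-0.80 on the log2 scale, adjusted p = 3.09e-04, edgeR) and Tpm1 (-0.27, adjusted p = 0.0210, edgeR), 2 of the 10 genes, while 12.3% of all genes passed. For Acta2 it was -0.89 (95% interval -1.51 to -0.27, adjusted p = 0.115, edgeR), at the few counts it had in BMDMs. Without BMDM WT replicate 1, BMDM PHD2cko replicate 1 or BMDM PHD2cko replicate 3, Tpm1 missed the threshold (adjusted p from 0.0546 to 0.0666, edgeR).

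**Figure D3:**
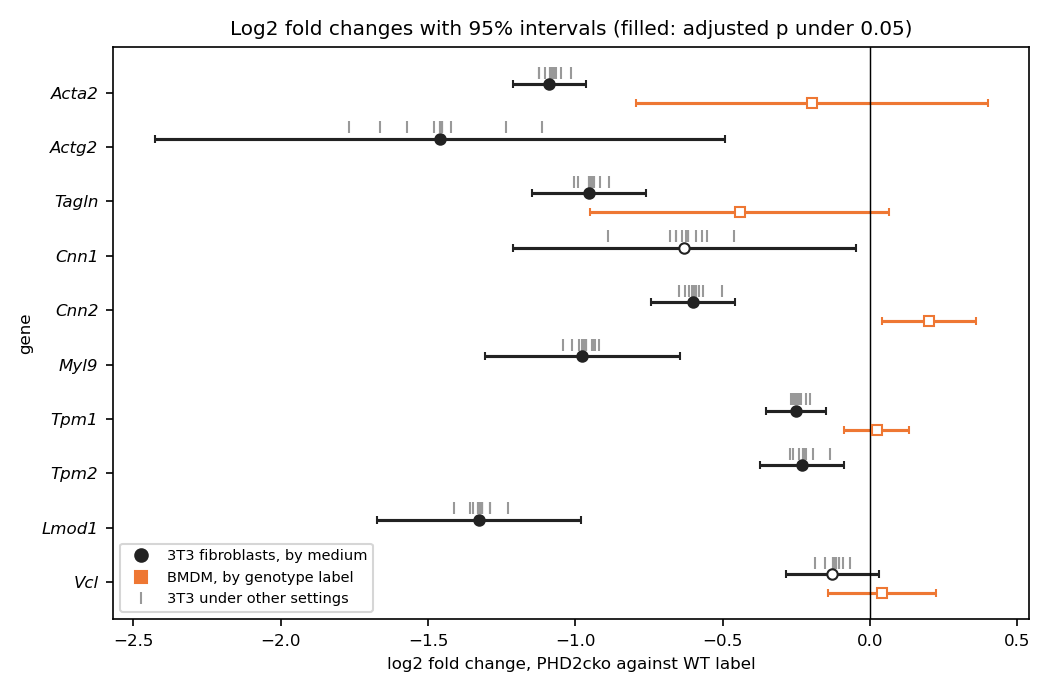
Log2 fold changes of the 10 contractile genes by PHD2cko against WT label. Dots are 3T3 fibroblasts by medium, squares BMDMs by genotype for genes with at least 10 counts in a BMDM library, horizontal lines are 95% intervals, filled symbols passed the threshold, and grey ticks are the fibroblast value under each alternative setting. All 10 fibroblast values lie below 0, and the BMDM square of Cnn2 lies above 0 without passing.

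The order of the genes by level per transcript length also differed between the media. Levels between genes are given as CPM per kb of the longest coding transcript in GENCODE. In WT medium, Acta2 was highest at 202 ± 12.7 CPM per kb, above Cnn2 at 166 ± 15.2 and Tpm1 at 155 ± 4.95 CPM per kb, whose ranges overlapped. In PHD2cko medium, Tpm1 was highest at 130 ± 2.74, then Cnn2 at 109 ± 2.70 and Acta2 at 95.1 ± 4.11 CPM per kb, and none of these ranges overlapped. Below them in WT medium came Tpm2 at 75.8, Vcl at 62.4, Tagln at 29.0, Myl9 at 11.6, Lmod1 at 2.07, Cnn1 at 0.908 and Actg2 at 0.633 CPM per kb, with no overlap between neighbours. In the same unit the cytoplasmic actins Actg1 and Actb were at 1487 and 1172 CPM per kb in WT medium. Another transcript length per gene would change these levels and could change their order. In mean CPM without a length, Tpm1 was above Acta2 in both media. These means were 446.6 against 411.5 CPM in WT medium and 375.2 against 193.6 CPM in PHD2cko medium.

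Of 8 genes for SRF and its cofactors, 7 were tested, and 1 was lower and 0 higher past the threshold, near the 6.75% and 8.93% of all genes. The median log2 fold change was -0.00063. Srf was at 59.9, 55.4 and 56.6 CPM in WT medium and 50.8, 51.6 and 49.1 CPM in PHD2cko medium. Its groups did not overlap, and it fell by 0.18 on the log2 scale (SE 0.0533, adjusted p = 0.0369, edgeR), but it passed in only 3 of 8 alternatives and 1 of 6 fits without a library. The coactivator genes Mkl1 (log2 fold change 0.03) and Mkl2 (0.01) did not pass. Nor did the ternary complex factor genes Elk1 (-0.05), Elk3 (-0.11, adjusted p = 0.102, edgeR) and Elk4 (-0.00063), or Scai (0.14, adjusted p = 0.269, edgeR), which encodes a repressor of the myocardin-related factors. Myocd, the smooth muscle coactivator gene, was too low to be tested, with 0.0653 CPM in WT medium.

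Among 24 other contractile genes, 18 were tested, 4 fell and 2 rose, beside 6.75% and 8.93% of all genes, with a median log2 fold change of -0.14. Nexn, whose product binds actin at adhesion sites, fell by 0.60 on the log2 scale (SE 0.130, adjusted p = 0.00818, edgeR). Mylk, the kinase that phosphorylates myosin light chains, fell by 0.42 (adjusted p = 0.00873, edgeR), from 55.7, 66.9 and 70.7 CPM to 48.3, 51.1 and 45.7 CPM. Mylk passed in 5 of 6 fits without a library. Smtn, smoothelin of contractile smooth muscle, fell by 0.35 (adjusted p = 0.00420, edgeR). The 4th was Myh10, a non-muscle myosin heavy chain, at -0.29 (adjusted p = 0.0413, edgeR), chosen after its values were seen, which passed in 1 of 6 fits without a library. The LIM protein genes Csrp1 (0.32, adjusted p = 0.00685, edgeR) and Csrp2 (0.26, adjusted p = 0.0403, edgeR) rose, and Csrp2 passed in 2 of those 6 fits. With 3 in place of 6, fewer of the 24 genes passed with the 6 fibroblast libraries alone or without PHD2cko medium replicate 3. The share of all genes past the threshold in either direction, 15.7%, was 6.82% and 8.70% in those fits, and 19.0% without WT medium replicate 1.

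Of 15 paralogs of the contractile genes, 12 were tested, 1 fell and 2 rose, beside 6.75% and 8.93% of all genes, with a median log2 fold change of -0.01. Without WT medium replicate 1, 5 of them passed, and 1 did with the 6 fibroblast libraries alone, where 19.0% and 6.82% of all genes passed. Myl12a, a non-muscle regulatory light chain related to Myl9, fell by 0.34 on the log2 scale (adjusted p = 0.00506, edgeR). Tagln2, the non-muscle relative of Tagln, rose by 0.29 (adjusted p = 0.0146, edgeR) and passed in 7 of 8 alternatives and 5 of 6 fits without a library. Tmod3, a tropomodulin related to leiomodin, rose by 0.31 (adjusted p = 3.18e-04, edgeR).

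Of 10 actin cross-linker genes, 1 fell and 1 rose, near the background of 6.75% and 8.93%, with a median log2 fold change of -0.04. Pls3, plastin 3, was at -0.15 (adjusted p = 0.0373, edgeR), which passed in 3 of 8 alternatives and 2 of 6 fits without a library, and Synpo, synaptopodin, at 0.27 (adjusted p = 0.0351, edgeR), which passed in 4 of those 6 fits. The count of 2 cross-linker genes was 0 with the 6 fibroblast libraries alone or without PHD2cko medium replicate 2, 4 without WT medium replicate 1, and 1 without any other library, where the share of all genes ran from 6.82% to 19.0%. Of 22 focal adhesion genes, 2 fell and 1 rose, which is also near that background, and the median was -0.0062. Without WT medium replicate 1, 7 of them passed, beside 19.0% of all genes. Itgb5, an integrin subunit, fell by 0.47 on the log2 scale (adjusted p = 5.95e-05, edgeR), from 176 to 187 CPM in WT medium to 130 to 134 CPM in PHD2cko medium. Tgfb1i1, the LIM protein Hic-5, fell by 0.27 (adjusted p = 0.0140, edgeR) and passed in 4 of 6 fits without a library. The scaffold gene Pxn rose by 0.27 (adjusted p = 0.00306, edgeR).

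Immediate-early genes are the other class of SRF targets. Of 10, 3 rose and 1 fell in PHD2cko medium, beside 8.93% and 6.75% of all genes, and 6 did not pass. Their median log2 fold change was 0.24, beside -0.0046 over all genes. Junb was at 21.4, 17.5 and 17.1 CPM in WT medium and 27.6, 24.0 and 31.7 CPM in PHD2cko medium, a rise of 0.58 on the log2 scale (SE 0.0979, adjusted p = 0.00166, edgeR). Fos was at 1.53, 0.943 and 1.11 CPM against 1.75, 2.14 and 2.42 CPM, a log2 fold change of 0.84 (adjusted p = 0.0110, edgeR). Egr1 rose from 53.3 to 67.8 CPM (0.35, adjusted p = 0.0175, edgeR). The groups did not overlap for these genes, and Fos and Egr1 each passed in 4 of 6 fits without a library. The count of 4 genes past the threshold was 1 with the 6 fibroblast libraries alone and 7 without WT medium replicate 1, beside 6.82% and 19.0% of all genes. It was 2 without WT medium replicate 2, without PHD2cko medium replicate 3, or with the macrophage share described above subtracted, beside 12.3%, 8.70% and 13.3%. Fos, Junb and Nr4a1 encode transcription factors, and Nr4a1 was lower (-0.44, adjusted p = 0.0488, edgeR), which passed in 2 of 8 alternatives and 1 of 6 fits without a library. In WT BMDMs Fos was at 12.3 CPM and Junb at 127 CPM. With the macrophage share subtracted, Fos missed the threshold (0.65, adjusted p = 0.0594, edgeR), and Junb (0.52, adjusted p = 0.00304, edgeR) and Egr1 (0.38, adjusted p = 0.0100, edgeR) passed.

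**Figure D4:**
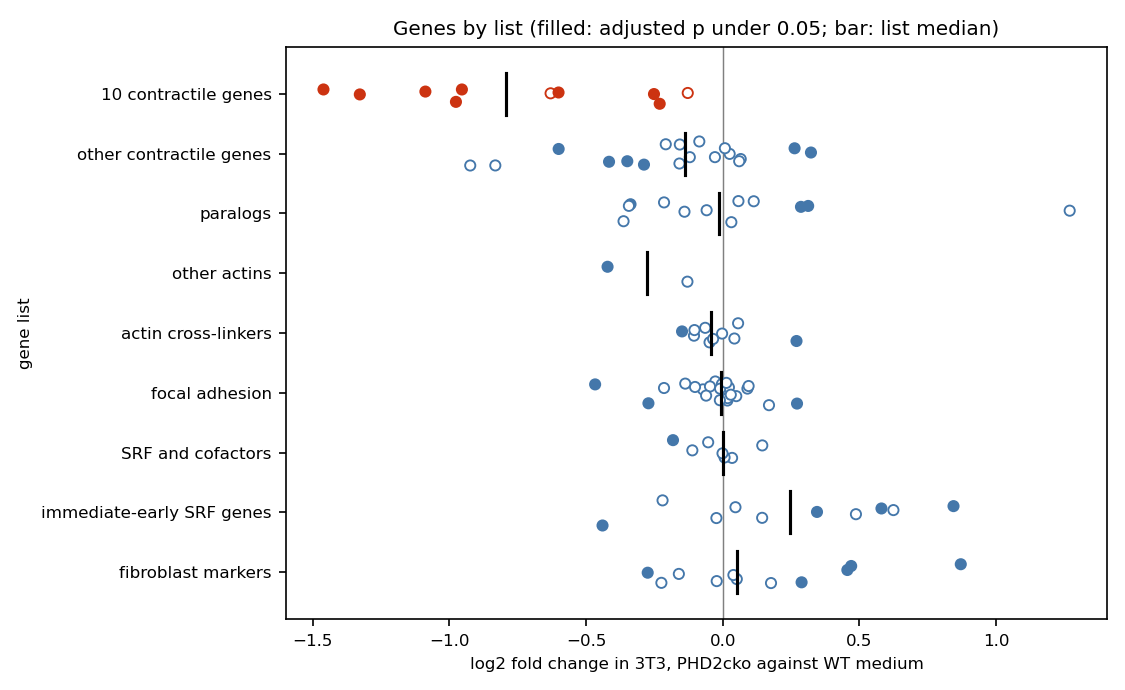
Log2 fold changes in 3T3 fibroblasts, PHD2cko against WT medium, by gene list. Each point is a gene tested, filled where its adjusted p was under 0.05, and black bars are list medians. The contractile genes (red) have a median of -0.79, and the medians of the other lists shown, which leave out the macrophage markers, lie between -0.28 for the other actins and 0.24 for the immediate-early genes.

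Of 11 fibroblast markers, 4 rose and 1 fell, beside 8.93% and 6.75% of all genes. Col3a1, a fibrillar collagen (0.87, adjusted p = 8.38e-04, edgeR), the growth factor receptor gene Pdgfra (0.46, adjusted p = 0.00292, edgeR), and the small proteoglycan genes Dcn (0.47, adjusted p = 0.0217, edgeR) and Lum (0.29, adjusted p = 0.0129, edgeR) were higher. The surface protein gene Thy1 was lower (-0.27, adjusted p = 0.0137, edgeR). Without PHD2cko medium replicate 3, 3 of the 11 passed, beside 8.70% of all genes.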

How the data were processed

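RNA of 12 libraries, 3 in each of 4 groups, was analysed. The authors deposited estimated counts per gene, made with kallisto on GRCm38, without normalization. The values are whole numbers, and how the estimates became whole is not given in the sources used here. All columns were mapped by their labels. Genes were kept by filterByExpr, which left 14285 of 32544. Counts were normalized by TMM and fitted with edgeR 4.0.16 in R 4.3.3 (quasi-likelihood, 4 groups, two-sided, Benjamini-Hochberg over all genes kept, threshold 0.05). Intervals are 95%. The macrophage share was the summed CPM of 23 markers, per total count, over that in BMDMs with the label of the medium. For the subtraction, each fibroblast library lost its share of the mean BMDM profile.

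The genes and lists were chosen with earlier results of these data known. Every contractile gene, SRF gene and other actin was named, as were up to 3 called genes per direction of each further list and the 5 most similar genes. The results of 1 further list are not reported here. Alternatives were DESeq2 size factors, DESeq2 1.42.0 with its Wald test, voom of limma 3.58.1 (the authors' method), a minimum of 10 counts per library, all genes with 1 count, each cell type fitted alone on its 6 libraries, a replicate block, the subtraction and each library left out. The pipeline was tested on simulated data. A floor of 3 counts came to 0.109 to 0.205 CPM and covers counting error only. Positions and transcript lengths come from GENCODE M21 on GRCm38, promoter windows from RefSeq.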

Additional observations from a re-analysis of the deposited data

Results flagged for a closer look

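For the genes below, the effect of the PHD2cko label differed between 3T3 fibroblasts and BMDMs by the interaction test (edgeR, Benjamini-Hochberg over all genes), where 12.3% of all genes did. Values are the log2 fold change in fibroblasts minus that in BMDMs. Negative values were found for Cnn2 (-0.80, adjusted p = 3.09e-04), Myl12a (-0.46, adjusted p = 0.00753), Itgb5 (-0.45, adjusted p = 5.36e-04), Actg1 (-0.40, adjusted p = 0.00619), Pls3 (-0.30, adjusted p = 0.00955), Tpm1 (-0.27, adjusted p = 0.0210) and Elk3 (-0.21, adjusted p = 0.0454). Positive values were found for Junb (0.61, adjusted p = 0.00703) and Tmod3 (0.24, adjusted p = 0.0129). These are genes named in the report. Of the other genes in the lists reported, Palld (-0.50, adjusted p = 0.00123), Tpm4 (-0.49, adjusted p = 0.00162), Actn1 (-0.29, adjusted p = 0.0304), Actn4 (-0.23, adjusted p = 0.0269), Sorbs3 (1.00, adjusted p = 2.96e-04) and Zyx (0.25, adjusted p = 0.0429) also passed, as did Egln1 (-0.27, adjusted p = 0.0319) and all 23 macrophage markers (0.94 to 7.65).

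Cnn2, Actg1, Itgb5, Junb, Myl12a, Pls3, Tmod3, Palld, Tpm4 and Sorbs3 passed in all 12 fits without a library, Tpm1 in 9, Actn4 in 5, Actn1 and Zyx in 3 each and Elk3 in 2.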

How the results depend on the processing

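In fibroblasts, 8 contractile genes fell, and 6 to 8 did under the 8 alternatives and in the 6 fits without a library, with 0 higher in any. Acta2, Tagln, Cnn2, Myl9, Tpm1 and Lmod1 passed in each of these fits. The median log2 fold change of -0.79 was -0.62 with at least 10 counts in every library, where Actg2 is not tested, and from -0.94 (without PHD2cko medium replicate 1) to -0.72 (without WT medium replicate 1) without a library. In BMDMs, 1 gene (Cnn2) in place of 0 passed with the 6 BMDM libraries alone, of 4 that could be tested, beside 2534 of all 12282 genes. For the interaction, 1 gene (Cnn2) in place of 2 passed without a filter beyond 1 count, beside 1499 of all 22175 genes. Without a library 1 to 2 passed, beside 1272 to 2316 of all genes. For fibroblasts against BMDMs, 4 genes passed with at least 10 counts in every library, all that could be tested, in place of 10. In that fit 4693 of all 10807 genes were higher in the fibroblasts.

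The replicate numbers were not shown to pair the libraries, since deviations of same-numbered fibroblast libraries correlated at 0.0397, 0.0418 and -0.0822 across genes. With the replicate block, 7 contractile genes fell (Actg2, adjusted p = 0.0667, edgeR) and the median was -0.81. Over all genes, 2240 differed in fibroblasts, and 912 did with the 6 fibroblast libraries alone, 1319 and 1260 without PHD2cko medium replicates 1 and 3, and 2757 without WT medium replicate 1. In BMDMs 961 differed, 2534 with the 6 BMDM libraries alone and 527 to 664 without a library. The cause was not tested. Depth limits Actg2 and Cnn1, with at most 21 and 59 counts in a fibroblast library, and most contractile genes in BMDMs.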
